A study of Homo sapiens with 4 samples.

Results

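The Fc receptor-like and Fc receptor genes of B cells comprised 10 genes of the 41507 in the deposited gene table: FCRL1, FCRL2, FCRL3, FCRL4, FCRL5, FCRLA, FCRLB, FCER2, FCGR2B and FCMR. They were taken by gene symbol. Of these, 9 had a row under their own symbol, and FCMR was taken from the row of its older symbol, FAIM3. RNA was sequenced from SU-DHL-5 and Toledo, established cell lines of diffuse large B-cell lymphoma (DLBCL). Each line was treated with the vehicle DMSO or with 1 µM JQ1, a small molecule that displaces BET bromodomain proteins from acetylated chromatin, and the labels give 6 h of treatment. The legend of the study gives 8 h for the same experiment. Every group was 1 sample of 1 line, sequenced as 2 libraries, so differences could not be checked against replicates and p-values were not computed. The values of both libraries are given instead, together with 95% intervals of the read ratios. These intervals cover counting error only.

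Fc receptors bind the constant part of antibodies and thereby tell a B cell that its antigen is already bound by antibody. FCGR2B, the inhibitory receptor for IgG, carries an immunoreceptor tyrosine-based inhibitory motif (ITIM), which recruits phosphatases that dampen the B-cell receptor. The Fc receptor-like proteins FCRL1 to FCRL5 are relatives of the IgG receptors on the surface of B cells and carry ITIMs, ITAM-like activating motifs or both. FCRLA and FCRLB stay inside the cell, and FCRLA is found in the endoplasmic reticulum of germinal center B cells. FCMR is the receptor for IgM, and FCER2 (CD23) is the low-affinity receptor for IgE, a lectin outside the immunoglobulin superfamily. BET proteins read acetylated histones at promoters and enhancers, and JQ1 is known to lower the transcription of many cell type-specific genes.

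The members lie in 4 places of the genome (GRCh38). FCRL5, FCRL4, FCRL3, FCRL2 and FCRL1 follow each other over 306.8 kb at chr1:157513377-157820150. FCGR2B, FCRLA and FCRLB lie within 65.0 kb at chr1:161663115-161728143. FCMR lies at chr1:206903285-206922033 and FCER2 at chr19:7688757-7702146.

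Start sites of the members are shown because most members were lower in JQ1 together and because FCRLB, which was not below 0.5 of DMSO in either line, had 2 starts with reads. The sequences are from RefSeq (GRCh38.p14), and each is written 5′ to 3′ on the strand of the gene. Windows of 250 bases before to 50 after the start were available for all 10 members, and the window nearest the listed 5′ end of the gene was used, which lay 0 to 257 bases from it. The hexamer ACTTCC, the complement of the GGAAGT core bound by ETS factors, occurred in 7 of the 10 windows, against 22.8% of 35116 windows of all genes when both strands were searched. All matches in these 7 windows were on the strand of the gene. The windows of FCRL1 (positions -217, -29 and -16) and FCRL5 (-151 and -18) held more than 1. The hexamer was chosen after these sequences had been seen, and the members of a family can share it by descent, so the count is a description. The match nearest the start is shown in capitals within 30 bases, with its first base counted back from the start.
FCRL1 (chr1:157820119-157820148, minus strand, position -16): cttccgatatcaACTTCCtcaaacctctga
FCRL2 (chr1:157777175-157777204, minus strand, position -60): tggcactattctACTTCCttttttgctaat
FCRL4 (chr1:157598086-157598115, minus strand, position -18): aaagattcctctACTTCCccctttcacttc
FCRL5 (chr1:157552516-157552545, minus strand, position -18): acgggtactcccACTTCCttttttcaattc
FCRLA (chr1:161707173-161707202, plus strand, position -44): acagttaaatttACTTCCtcttttctaatc
FCGR2B (chr1:161663119-161663148, plus strand, position -12): catttctttttcACTTCCcctttcagactc
FCMR (chr1:206922049-206922078, minus strand, position -125): tctcagctcctgACTTCCgctgtggtttgt

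The hexamer was not in the windows of FCRL3, FCRLB and FCER2. The upstream start of FCRLB held the octamer ATTTGCAT, the motif of POU factors such as OCT2, at position -65. This octamer was in 1 of the 10 windows and in 1.77% of all windows. The E-box CACGTG was in none of the 10 windows and in 7.26% of all windows, and the EBF motif, TCCC and GGGA with 2 bases between them, was in none and in 1.21%. The stretches before the starts of FCRL5 and FCRLB follow, one with the hexamer and one with the octamer in capitals.
FCRL5 (chr1:157552521-157552615, minus strand): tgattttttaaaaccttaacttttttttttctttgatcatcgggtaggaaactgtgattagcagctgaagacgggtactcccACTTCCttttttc
FCRLB (chr1:161721444-161721543, plus strand): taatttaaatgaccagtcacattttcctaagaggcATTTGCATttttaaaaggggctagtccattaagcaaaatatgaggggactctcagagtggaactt

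The 8 libraries held 14617583 to 17679831 mapped reads, of which 94.8% to 95.5% lay on genes. The B-cell markers MS4A1, CD79A, CD79B, PAX5 and CD22 were at 3.01 RPKM or more in every sample, where RPKM is the read number normalized by gene length and by library depth. Of 6 T-cell and NK markers, only CD3E in SU-DHL-5 DMSO passed 1 RPKM (1.01), and of 7 myeloid markers only LYZ in the same sample (1.15). The summed level of the T-cell and NK markers was 0 to 1.38 RPKM and that of the myeloid markers 0.152 to 1.29 RPKM, both highest in SU-DHL-5 DMSO. CD3E and LYZ were also below 0.5 of DMSO in SU-DHL-5 JQ1, where CD3E went from 1.09 and 0.934 RPKM to 0.120 and 0.0452 and LYZ from 1.09 and 1.20 to 0.200 and 0.0903. The part of such cells in the results was not tested. CD3D, CD2, NCAM1, S100A8 and S100A9 were at or near 0 throughout. HEXIM1, a gene that BET inhibitors are known to raise, was at 4.35 and 3.89 RPKM in DMSO against 22.4 and 22.9 in JQ1 in SU-DHL-5, and at 4.04 and 3.94 against 23.9 and 24.5 in Toledo.

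The members differed widely in level, and FCRLA made up most of their summed RPKM. It accounted for 81.6% of the sum over the 10 genes in SU-DHL-5 DMSO, 76.9% in SU-DHL-5 JQ1, 86.8% in Toledo DMSO and 80.6% in Toledo JQ1. In SU-DHL-5 DMSO, the mean levels were 50.8 RPKM for FCRLA, 6.14 for FCRLB, 1.96 for FCRL5, 1.46 for FCRL3 and 1.46 for FCGR2B. FCRL1 (0.202), FCRL2 (0.112), FCMR (0.0493), FCER2 (0.0171) and FCRL4 (0.0085) were below 1 RPKM there. The libraries of FCRL3 and FCGR2B overlapped, so these neighbours in the order could not be separated.

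In Toledo DMSO the order was different. The mean levels were 144 RPKM for FCRLA, 14.4 for FCMR, 2.16 for FCRLB, 1.61 for FCGR2B and 1.07 for FCRL5. FCRL2 followed at 0.988, FCER2 at 0.888 and FCRL1 at 0.747, while FCRL3 (0.0417) and FCRL4 (0.0260) were near the floor. The libraries of FCRL5 and FCRL2 overlapped, as did those of FCRL2 and FCER2. FCRL4, the IgA receptor of memory B cells in tissues, had 4 reads in all 8 libraries, so neither its level nor its response could be measured at this depth.

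**Figure D1:**
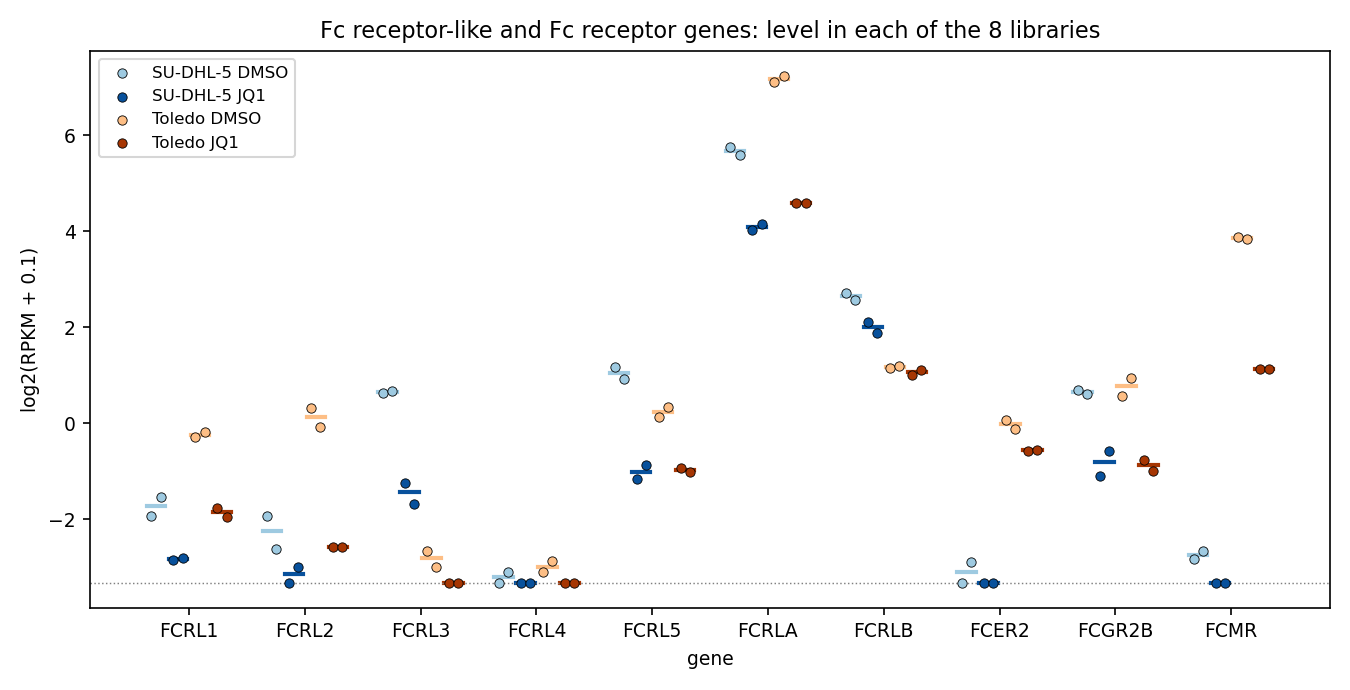
Level of each gene (log2 of RPKM + 0.1) in each library, with 2 points per sample and a line at the log2 of their mean + 0.1, and a dotted line at 0 RPKM. FCRLA is the highest gene in every sample, FCMR is high in Toledo alone, and the JQ1 points lie below the DMSO points for most genes.

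The question of the JQ1 comparison was which genes the drug lowered within hours. Members were counted where they had at least 50 reads over the 4 libraries of a line, and they were called where RPKM + 0.1 differed by more than a fold of 2. In SU-DHL-5, 5 members had enough reads, and 4 of them (FCRL3, FCRL5, FCRLA and FCGR2B) were below 0.5 of DMSO, whereas 7.22% of the 10206 genes with enough reads were. In Toledo, 8 members had enough reads, and 6 (FCRL1, FCRL2, FCRL5, FCRLA, FCGR2B and FCMR) were below 0.5 of DMSO, against 9.48% of 10710 genes. None of the members was above 2 times DMSO in either line, a rise that 1.86% of all genes showed in SU-DHL-5 and 1.94% in Toledo. A member low in JQ1 passed the minimum through its DMSO reads. Over all 10 members with no minimum, 5 were below 0.5 of DMSO in SU-DHL-5, beside 7.38% of the 13269 genes with any reads there. Toledo had 6, beside 9.18% of 14124 genes. RPKM is relative to all mapped reads, and in bulk samples fewer cells of a kind and less RNA per cell cannot be told apart.

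The libraries did not overlap, with JQ1 lower, for 5 of the 5 members counted in SU-DHL-5 and for 8 of the 8 in Toledo. Over all genes counted, this was so for 39.1% (SU-DHL-5) or 44.4% (Toledo). The median log2 ratio of the members was -1.57 in SU-DHL-5, with a range of -2.09 to -0.64, beside 0.0095 for all genes. In Toledo it was -1.64, with a range of -2.74 to -0.12, beside -0.0857 for all genes. These medians cover only the members with enough reads, which are not the same genes in both lines.

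**Figure D2:**
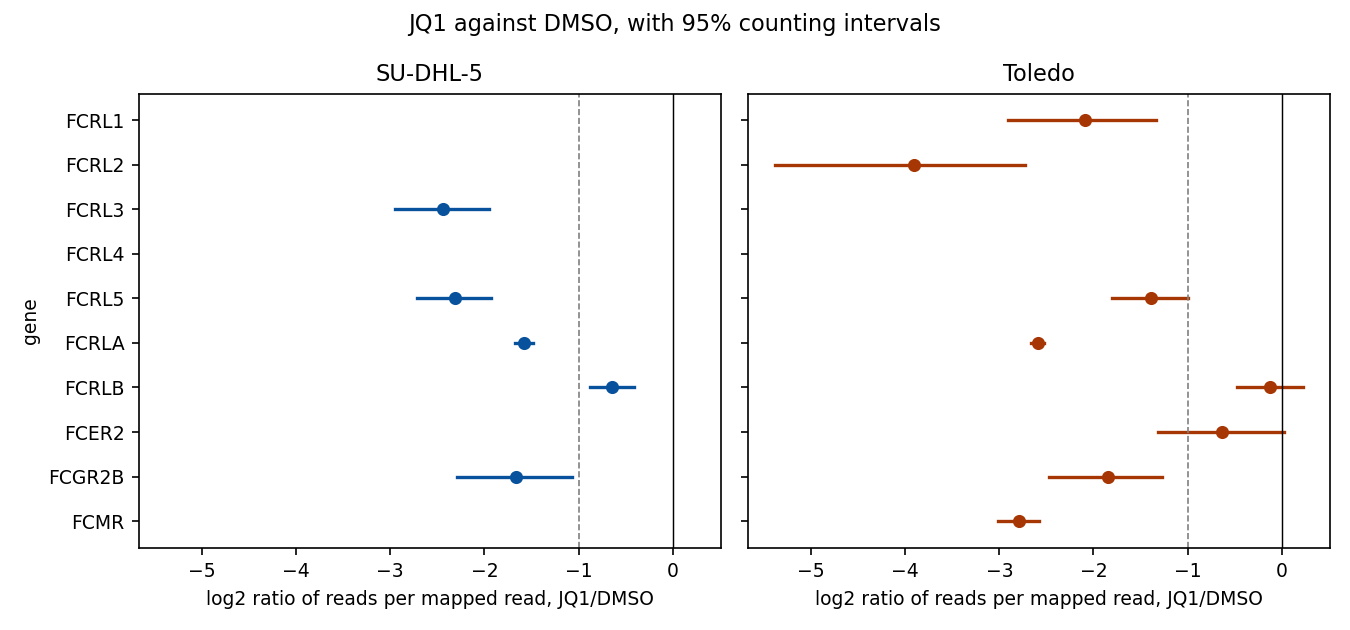
Log2 ratio of reads per mapped read, JQ1 against DMSO, for the members with at least 50 reads in the line; points are the ratios, bars their 95% counting intervals, and the dashed line 0.5 of DMSO. FCRLB in Toledo (interval -0.48 to 0.23) and FCER2 in Toledo (-1.32 to 0.03) are the 2 whose intervals include 0.

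FCRLA, the intracellular protein of germinal center B cells, was the most abundant member and the best measured. In SU-DHL-5 it was at 53.5 and 48.0 RPKM in DMSO and at 16.3 and 17.7 in JQ1, or 33.4% of DMSO by reads (interval 31.3% to 35.6%). In Toledo it was at 138 and 150 RPKM in DMSO and at 23.8 in both JQ1 libraries, or 16.6% of DMSO (15.8% to 17.4%). The DMSO and JQ1 libraries did not overlap in either line. For SU-DHL-5, the log2 ratio was -1.71 from the first libraries alone and -1.44 from the second, both outside the counting interval of -1.67 to -1.49, so the libraries of this gene differed by more than counting error. The log2 ratio of reads was lower in Toledo than in SU-DHL-5 by 1.01 (a difference of -1.01, interval -1.13 to -0.89). In DMSO, Toledo had 2.84 times the FCRLA reads of SU-DHL-5 (2.74 to 2.94). In JQ1 the means of the lines were 17.0 RPKM in SU-DHL-5 and 23.8 in Toledo.

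FCRLB, the other intracellular member, was the least changed of the abundant ones. It was at 6.44 and 5.84 RPKM in SU-DHL-5 DMSO and at 4.22 and 3.60 in JQ1, which was 64.1% by reads (54.4% to 75.3%). In Toledo it was at 2.13 and 2.19 RPKM in DMSO and at 1.91 and 2.05 in JQ1, or 91.8% (71.8% to 117%), so a change in Toledo was not detectable at this depth. FCRLB is the next listed member after FCRLA on the chromosome, and the intervals of their ratios did not overlap in either line. The log2 ratio of FCRLB was higher in Toledo by 0.52 (0.09 to 0.94).

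FCRL5, which binds IgG and carries ITIMs, was at 2.14 and 1.78 RPKM in SU-DHL-5 DMSO and at 0.349 and 0.444 in JQ1. This was 20.2% of DMSO by reads (15.2% to 26.3%). In Toledo FCRL5 was at 0.986 and 1.15 RPKM in DMSO and at 0.422 and 0.391 in JQ1, or 38.1% (28.6% to 50.3%). The groups did not overlap in either line, and the levels in JQ1 were close (means of 0.396 RPKM for SU-DHL-5 and 0.406 for Toledo). The log2 ratio was higher in Toledo by 0.92 (0.36 to 1.49), the opposite order to FCRLA.

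FCRL3, a receptor of IgA with both ITIM and ITAM-like sequence, was expressed in SU-DHL-5. It was at 1.44 and 1.49 RPKM in DMSO and at 0.324 and 0.211 in JQ1 there, which was 18.5% by reads (12.9% to 25.8%). In Toledo it had 5 and 2 reads in DMSO and none in JQ1, so no size of change could be read there. Toledo DMSO had 2.89% of the FCRL3 reads of SU-DHL-5 DMSO (1.15% to 6.06%).

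FCRL1 and FCRL2 had the reverse distribution over the lines. FCRL1, an activating coreceptor with ITAM-like motifs, was at 0.716 and 0.779 RPKM in Toledo DMSO and at 0.195 and 0.157 in JQ1, or 23.6% (13.3% to 39.6%). FCRL2, found on memory B cells, was at 1.14 and 0.840 RPKM in Toledo DMSO and had 3 reads in each JQ1 library, 6.68% of DMSO (2.39% to 15.1%). FCRL2 had the lowest share of DMSO among the members with enough reads, and on the log scale its interval was also the widest of those below 0.5 of DMSO. That interval overlapped those of FCMR and FCRL1 in Toledo and of FCRL3 in SU-DHL-5, so their order could not be separated.

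In SU-DHL-5, both genes were below the minimum of 50 reads. FCRL1 had 8 and 13 reads in DMSO against 2 and 2 in JQ1, and FCRL2 had 7 and 3 against 0 and 1. The order of the libraries was the same as in Toledo for both genes. Toledo DMSO had 3.67 times the FCRL1 reads of SU-DHL-5 DMSO (2.25 to 6.25) and 9.06 times the FCRL2 reads (4.71 to 19.5).

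FCGR2B, the inhibitory IgG receptor, was at a like level in both lines. It was at 1.50 and 1.42 RPKM in SU-DHL-5 DMSO and at 0.365 and 0.570 in JQ1, which was 31.6% by reads (20.4% to 47.6%). In Toledo it was at 1.39 and 1.82 RPKM in DMSO and at 0.484 and 0.401 in JQ1, or 27.7% (18.0% to 41.5%). The log2 ratios differed by -0.19 between the lines, with an interval of -1.05 to 0.67 that reaches a fold of 2 toward the lower ratio in Toledo. Toledo and SU-DHL-5 in DMSO differed by 1.09 times (0.833 to 1.44). Of the 50-base words in FCGR2B transcripts, 12.1% also occur in FCGR2C and 2.65% in FCGR2A, so reads of this gene could be split with its relatives. FCGR2C was listed at 0 in all 8 libraries, and FCGR2A had 7 and 16 reads in DMSO of SU-DHL-5 and Toledo and none in JQ1.

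FCMR, the IgM receptor, separated the lines most. In Toledo it was at 14.6 and 14.3 RPKM in DMSO and at 2.07 and 2.09 in JQ1, 14.4% by reads (12.4% to 16.7%). In SU-DHL-5 it had 2 and 3 reads in DMSO and none in JQ1. Toledo DMSO had 291 times the reads of SU-DHL-5 DMSO (124 to 898), the largest value among the members, although its interval overlapped that of FCER2 (8.60 to 2017). The DMSO and JQ1 libraries of FCMR did not overlap in Toledo.

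FCER2 was measured in Toledo only. It was at 0.953 and 0.822 RPKM in DMSO and at 0.571 and 0.576 in JQ1, or 64.4% by reads (40.1% to 102%), a difference within the counting interval although the libraries did not overlap. SU-DHL-5 had 1 read in DMSO and none in JQ1. ADAM10, the protease that cleaves FCER2 from the cell surface, was at 4.63 and 3.51 RPKM in SU-DHL-5 DMSO and 6.14 and 6.06 in JQ1, and at 6.78 and 9.20 against 9.06 and 8.09 in Toledo, where the groups overlapped.

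Between the lines in DMSO, 9 members had at least 50 reads. Of these, 5 (FCRL1, FCRL2, FCRLA, FCER2 and FCMR) were more than 2 times higher in Toledo, against 18.2% of the 11034 genes counted. FCRL3 and FCRLB in Toledo DMSO were below 0.5 of their level in SU-DHL-5 DMSO, as were 14.6% of all genes. A member high in a single line passed the minimum through that line. FCER2 had 52 reads in Toledo DMSO against 1 in SU-DHL-5 DMSO, FCMR 1510 against 5, and FCRL3 7 against 233. FCRL4, the member left out, had a log2 ratio of 0.22, so the member counts were the same with no minimum. FCRL5 in Toledo DMSO was at 54.6% of SU-DHL-5 DMSO (45.6% to 65.3%). The FCRL1 to FCRL5 cluster thus held genes of either order, with FCRL1 and FCRL2 higher in Toledo and FCRL3 and FCRL5 higher in SU-DHL-5. In JQ1, FCRL1 and FCRL2 in Toledo, FCRL3 in SU-DHL-5 and FCRL5 in both lines had enough reads and were below 0.5 of DMSO. This was so for 7.22% (SU-DHL-5) or 9.48% (Toledo) of all genes counted. FCRL1, FCRL2 and FCRL3 passed the minimum through their DMSO reads. Under the minimum, log2 ratios were -1.10 for FCRL1 and -0.92 for FCRL2 in SU-DHL-5, and -0.50 for FCRL3 in Toledo. Those of FCRL4 were -0.12 and -0.33.

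The transcript table listed 50 transcripts of the 10 members, and the split of reads among them is the estimate of the authors. Transcript reads were scaled, where needed, so that they added up to those of the gene for all 10. Their sum is therefore no check of the split. FCRLA had 8 transcripts with reads, and 1 of them (FCRLA_3) made up 83.8% of its summed transcript RPKM in SU-DHL-5 DMSO and 78.4% in Toledo DMSO. In JQ1 its share was 89.0% and 90.3%.

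The minor FCRLA transcripts differed in their ratios, and FCRLA_6 was lower than the main one in both lines. The log2 ratio of reads of FCRLA_3 was -1.51 (-1.61 to -1.41) in SU-DHL-5 and -2.42 (-2.50 to -2.35) in Toledo. That of FCRLA_6, which had 209 reads in SU-DHL-5 DMSO and 955 in Toledo DMSO, was -2.55 (-3.12 to -2.02) and -4.03 (-4.44 to -3.64). These intervals leave out the error of the split itself. That of FCRLA_8 was -2.51 (-3.12 to -1.95) and -3.71 (-4.17 to -3.29). In SU-DHL-5, FCRLA_8 was at 2.29 and 3.58 RPKM in DMSO and at 0.977 and 0 in JQ1, so that its lower ratio in this line rests on the second library. FCRLA_4 had -1.18 (-1.86 to -0.53) and -3.64 (-4.45 to -2.93), and in Toledo it was at 3.10 and 3.20 RPKM in DMSO and at 0 and 0.507 in JQ1, so that 1 library carries much of that value. FCRLA_7 was not lower in SU-DHL-5, with 19 reads in DMSO and 19 in JQ1 and a log2 ratio of 0.07 (-0.93 to 1.07), whereas in Toledo it went from 100 reads to 14 (-2.77, -3.69 to -1.96).

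FCMR had 5 transcripts with reads in Toledo. The most abundant of these, FAIM3_4, made up 50.6% of the summed transcript RPKM in DMSO and went from 635 reads to 67 in JQ1. FAIM3_1 went from 335 to 25 and FAIM3_2 from 277 to 89. FAIM3_2 had a log2 ratio of -1.57 (-1.93 to -1.22) and FAIM3_1 of -3.68 (-4.33 to -3.09), so the estimates for these transcripts differed beyond counting error. The intervals leave out the error of the split, and FAIM3_5 was at 0.591 and 0 RPKM in the libraries of Toledo JQ1. Whether the transcripts were lowered unequally can therefore not be told. FCRL5_2 was the main transcript of FCRL5, with 99.1% of the RPKM in SU-DHL-5 DMSO and 84.5% in Toledo DMSO. The other transcript, FCRL5_1, had reads in 1 of the 2 libraries of each sample only, so its share was not stable.

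FCRLB transcripts begin at 2 starts, at positions 161721544 and 161722653 of chromosome 1, and the stretch with the octamer shown above ends at the upstream one. In SU-DHL-5, 83.0% of the FCRLB reads (79.0% to 86.6%) in DMSO and 82.0% (76.6% to 86.6%) in JQ1 were assigned to the transcript of the upstream start. In Toledo the share was 33.6% (26.0% to 41.8%) in DMSO, while 64 of 128 reads (41.0% to 59.0%) had this start in JQ1. The share assigned to the upstream start thus differed between the lines beyond counting error. All 4 libraries of SU-DHL-5 were at 79.0% to 86.1% and all 4 of Toledo at 26.7% to 58.1%. The intervals leave out the error of the split, since transcripts of both starts share reads. FCRLB_2, a transcript of the downstream start, was at 0 and 0.877 RPKM in SU-DHL-5 DMSO and at 0 in the other samples. The libraries of Toledo JQ1 (58.1% and 42.4%) and Toledo DMSO (26.7% and 40.8%) did not overlap, but their gap was smaller than the spread within either sample. The upstream transcript had 332 reads in SU-DHL-5 DMSO and 200 in JQ1, a log2 ratio of -0.66 (-0.92 to -0.40), and 49 and 64 in Toledo, 0.45 (-0.11 to 1.02). POU2F2, which encodes OCT2, was at 30.7 and 27.7 RPKM in SU-DHL-5 DMSO and at 1.12 and 1.30 in Toledo DMSO, and whether this has a part in the choice of start was not tested.

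**Figure D3:**
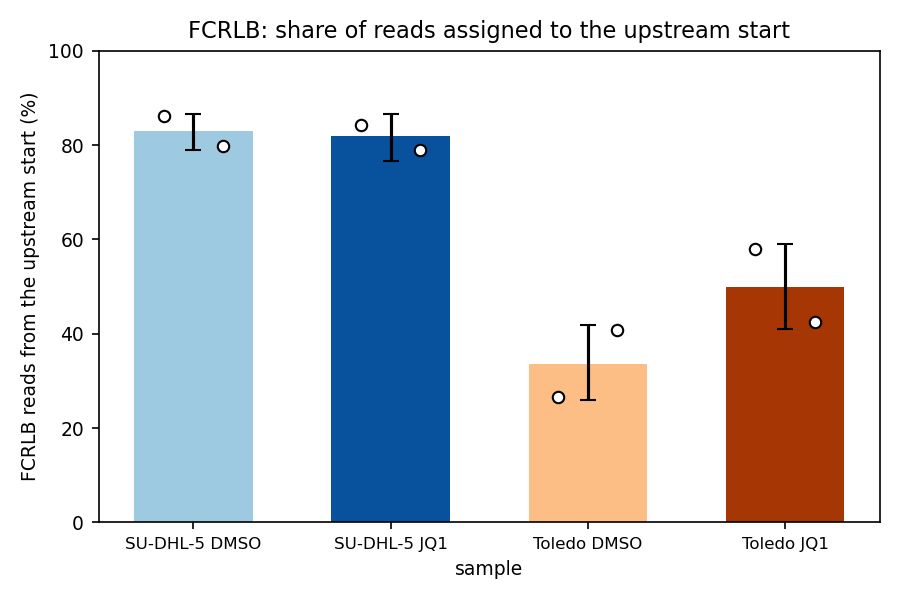
Share of FCRLB reads (%) that the transcript table assigns to the upstream start in each sample; bars are the share over both libraries with exact 95% binomial intervals, and circles the 2 libraries. SU-DHL-5 is at 83.0% and 82.0%, and Toledo DMSO at 33.6%, below Toledo JQ1 with 64 of 128 reads.

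Other genes of the pathway were taken from lists. Of 10 inhibitory receptors with ITIMs outside the family, 5 had enough reads in SU-DHL-5, and all 5 (CD22, CD72, SIGLEC10, PECAM1 and CEACAM1) were below 0.5 of DMSO, with a median log2 ratio of -2.13. In Toledo 4 had enough reads, and all 4 (CD22, CD72, SIGLEC10 and LAIR1) were below 0.5 of DMSO, with a median of -2.29. CD22, the sialic acid-binding inhibitor of the B-cell receptor, was at 30.2 and 26.6 RPKM against 10.8 and 9.63 in SU-DHL-5. CD72 was at 8.84 and 8.91 against 1.05 and 0.982 in SU-DHL-5, and at 12.4 and 13.6 against 1.77 and 1.74 in Toledo. The counted receptors of this list were thus below 0.5 of DMSO in both lines, as most counted Fc receptor-like genes were. The share of all counted genes was 7.22% (SU-DHL-5) or 9.48% (Toledo). Here too, a receptor low in JQ1 passed the minimum through its DMSO reads. CEACAM1 in SU-DHL-5 had 49 reads in DMSO and 2 in JQ1. Under the minimum, log2 ratios were -0.25 for LAIR1 and -0.13 for BTLA in SU-DHL-5. For Toledo they were -0.22 for PECAM1, -0.52 for CEACAM1 and -2.22 for PDCD1. The remaining receptors had no reads.

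Enzymes and adaptors that act behind ITIMs were more mixed. Of 10 ITIM effectors with enough reads in SU-DHL-5, 4 (PTPN6, INPP5D, DOK2 and DOK3) were below 0.5 of DMSO, and the median was -0.82. Of 9 in Toledo, 3 (PTPN6, INPPL1 and DOK3) were below 0.5 of DMSO, and the median was -0.45. The shares of all counted genes were again 7.22% (SU-DHL-5) and 9.48% (Toledo). PTPN6, the phosphatase SHP-1, was at 122 and 103 RPKM against 27.7 and 29.6 in SU-DHL-5 and at 25.2 and 25.8 against 4.38 and 3.99 in Toledo. INPP5D, the phosphatase SHIP1 that FCGR2B recruits, had a log2 ratio of -1.10 in SU-DHL-5, while in Toledo it was -0.75. CSK, the effector with the highest mean in SU-DHL-5 DMSO, was at 135 and 112 RPKM against 93.1 and 90.2 there. The libraries of GRB2 (120 and 119) and PTPN6 overlapped those of CSK, so this order could not be separated. GRB2, the most abundant in Toledo, was at 54.2 and 58.9 RPKM against 64.5 and 63.5.

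The other Fc receptors were mostly silent, since only 2 of 14 had enough reads. FCGRT, the neonatal receptor that recycles IgG, was at 1.88 and 1.74 RPKM against 0.548 and 0.391 in SU-DHL-5, and at 4.55 and 3.25 against 0.673 and 0.796 in Toledo. TRIM21, the cytosolic Fc receptor and the highest of the list, was at 9.04 and 10.3 against 7.22 and 6.84 in SU-DHL-5, above 0.5 of DMSO. FCRL6, FCGR1A, FCGR3A and FCAR had no reads.

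Of the B-cell receptor complex and proximal signaling genes, 8 had enough reads in each line. BTK and BLNK were among those below 0.5 of DMSO in SU-DHL-5, as was BLNK in Toledo, and the medians of the list were -0.78 and -0.74. CD79A, the most abundant, was at 643 and 562 RPKM against 370 and 367 in SU-DHL-5, above 0.5 of DMSO. Of the 5 B-cell markers named above, MS4A1 and CD22 were below 0.5 of DMSO in both lines. The log2 ratios of the other 3 were -0.71 and -0.77 for CD79A, 0.01 and -0.28 for CD79B, and -0.64 and 0.27 for PAX5. Among partners of immunoglobulin and of CD23, 4 had enough reads, and IGJ, the joining chain of IgM and IgA (JCHAIN), was below 0.5 of DMSO in both lines, at 95.6 and 93.7 RPKM against 37.9 and 34.3 in SU-DHL-5 and 720 and 732 against 271 and 264 in Toledo. CD74, the highest of that list, had log2 ratios of -0.13 and 0.19.

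Among 16 transcription factors of B cells, 14 had enough reads in SU-DHL-5 and SPI1 alone was below 0.5 of DMSO, with a median of -0.20. In Toledo, SPI1, IKZF1 and IRF8 of 15 were below 0.5 of DMSO, with a median of -0.32. Beside these stand 7.22% (SU-DHL-5) and 9.48% (Toledo) of all genes counted. SPI1, which encodes the ETS factor PU.1, was at 89.6 and 82.1 RPKM against 34.3 and 35.1 in SU-DHL-5 and at 59.3 and 58.6 against 10.8 and 9.73 in Toledo. SPIB, another ETS factor of B cells, had log2 ratios of -0.33 and -0.32. Any part of these factors in the levels of the members was not tested. POU2AF1 had the highest mean of the list in SU-DHL-5 DMSO, at 94.6 and 85.8 RPKM, with a log2 ratio of -0.95, and its libraries overlapped those of SPI1. In Toledo DMSO this was SPIB, at 103 and 98.4 RPKM. The control MYC was at 44.1 and 40.9 RPKM against 35.2 and 34.4 in SU-DHL-5 and 40.4 and 44.4 against 44.6 and 42.1 in Toledo. SERPINI1 was above 2 times in SU-DHL-5, with 21 reads in DMSO against 94 in JQ1.

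**Figure D4:**
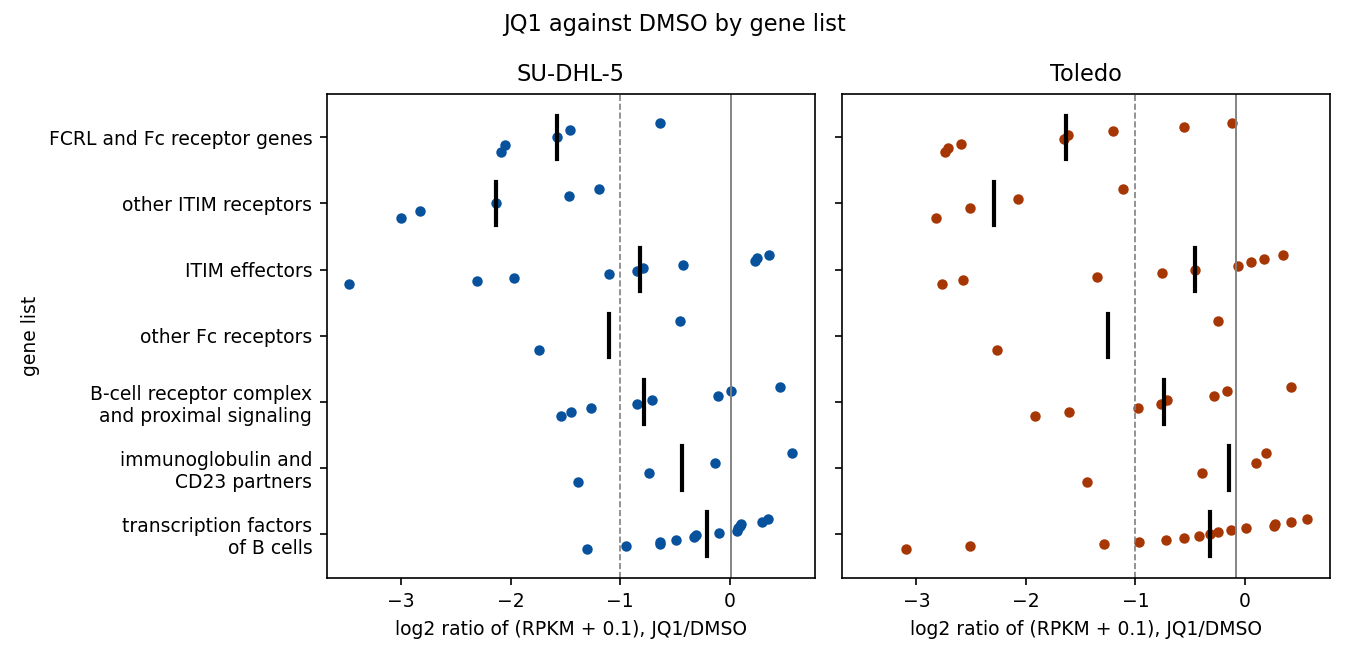
Log2 ratio of (RPKM + 0.1), JQ1 against DMSO, of each gene with at least 50 reads in the line, by list; black lines are list medians, the grey line the median of all genes and the dashed line 0.5 of DMSO. The members' medians are -1.57 and -1.64, those of the other ITIM receptors -2.13 and -2.29, and those of the transcription factors -0.20 and -0.32.

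The genes counted around the members lay unevenly over the 4 places. Within 200 kb of a member, 13 other genes had enough reads in SU-DHL-5, with 1 below 0.5 of DMSO (IL10), 1 above 2 times (EVI5L) and a median log2 ratio of -0.12. In Toledo, 16 had enough reads, with 2 below 0.5 of DMSO (KIRREL and ZNF358), none above 2 times and a median of -0.23. Of all genes counted, 7.22% (SU-DHL-5) and 9.48% (Toledo) were below 0.5 of DMSO, so the counts near the members were close to these shares. Of these neighbours, 8 of the 13 and 9 of the 16 lie near FCER2. The cluster of FCRL5 to FCRL1 had no such neighbour in SU-DHL-5 and 1 in Toledo (KIRREL, -1.72). DUSP12 and ATF6 follow FCRLB at 21.6 kb and 38.1 kb. DUSP12 had log2 ratios of -0.23 and -0.41 and ATF6 of 0.13 and -0.28, while FCRLA on the same stretch had -1.57 and -2.59. TRAPPC5, at 5.9 kb from FCER2, had -0.33 and -0.20.

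**Figure D5:**
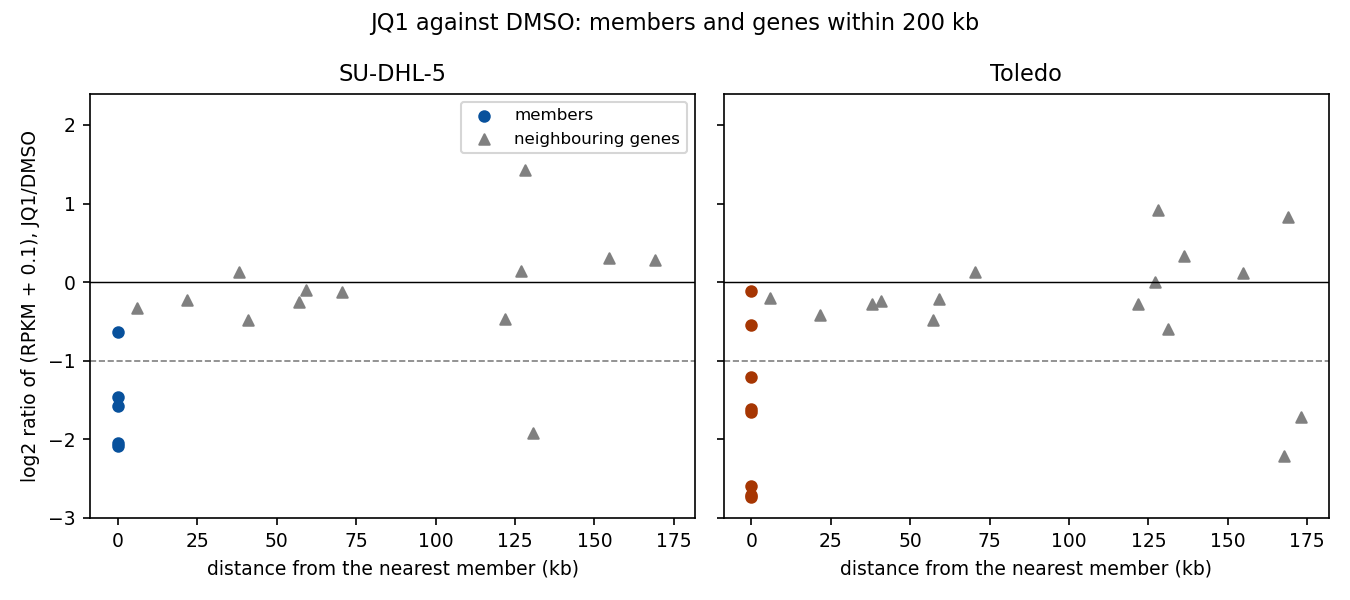
Log2 ratio of (RPKM + 0.1), JQ1 against DMSO, of members (circles, at 0 kb) and of other genes within 200 kb with at least 50 reads in the line (triangles), against distance from the nearest member. The median of the neighbours is -0.12 for SU-DHL-5 and -0.23 for Toledo, and the dashed line marks 0.5 of DMSO.

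Likeness over the 4 samples was measured to FCRLA and FCMR, the 2 members with the highest mean RPKM over the 8 libraries (FCMR through Toledo alone). It was the distance between centred log2(RPKM + 0.1) values, among 9683 genes with at least 50 reads in each line. Nearest to FCRLA were C19orf77 (distance 0.241), FCGRT (0.321) and ADAT2 (0.349). The mean RPKM of C19orf77 was 2.34 in SU-DHL-5 DMSO, 0.727 in SU-DHL-5 JQ1, 6.42 in Toledo DMSO and 1.26 in Toledo JQ1. Nearest to FCMR among these genes were DPP7 (1.48), CKAP4 (1.59) and ITGA4 (1.73). FCMR itself had 5 reads in SU-DHL-5 DMSO and none in JQ1, so genes as low there as FCMR were left out. Its distances can therefore not be set against those of FCRLA. The JQ1 log2 ratios of ITGA4 were -1.24 (SU-DHL-5) and -1.43 (Toledo), and those of DPP7 were 0.47 and -1.20. With 4 samples of 2 lines, this likeness describes these samples only.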

How the data were processed

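RNA of 4 samples (2 lines, DMSO or JQ1) was sequenced by the authors from stranded mRNA libraries, as 2 library columns per sample. What separates the columns is not given in the sources used here, so their mean was used as 1 replicate. The authors deposited RPKM values of trimmed paired reads, per gene and per transcript, and the values are not counts. Per the labels, the processing notes name CASAVA 2.0 and GRCh38; the aligner, annotation and use of strand are not given in the sources used here.

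Mapped reads per library were recovered from single-exon genes, and whole reads of 98.6% of 14944 genes with a value followed from the smallest length of 100 to 40000 bases that made all values whole. Values of 1 library or 2 printed in few digits could not be recovered, and where reads are few the counts can be too small by a shared factor. Ratios were log2((a + 0.1)/(b + 0.1)) of mean RPKM, called beyond a fold of 2, among genes with at least 50 reads over the 4 libraries compared. Intervals are exact binomial 95% intervals of the read share, and differences between lines combined both (method of variance estimates recovery). On simulated data for SU-DHL-5, 100% of 100 genes set to 0.25 of their level and 0.02% of unchanged genes were called, and 99.8% of 10295 genes had all reads recovered. The simulated reads varied by counting error only, and the set change was larger than the fold called. The shares called are therefore a check of the code and not error rates of the calls on the real samples.

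Members and lists were chosen with earlier results of these data known. Named were all members, list genes past a fold of 2 and the highest of each list, neighbours within 200 kb and 3 genes of like pattern; other genes named were picked after their values were seen. A listed gene that stays in the medians is not reported here. Start sequences are from RefSeq (GRCh38.p14), and 50-base words from GENCODE v29 transcripts. The work used scipy 1.17.1, pandas 2.3.3, matplotlib 3.10.9 and numpy 2.4.6 under Python 3.11.15.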

Additional observations from a re-analysis of the deposited data

How the results depend on the processing

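No paired test within a line was possible, because each line had 1 sample per condition, both with replicate number 1. A fit over both lines with the line as a block was not run. Across 22 member ratios and 6 alternatives, values were set against the counting interval, widened where needed to include the main ratio. Of 132 values, 104 stayed within the widened interval and 28 left it (15 with a pseudocount of 1). Fewer would have stayed without the widening. For FCMR between the lines in DMSO, 6.63 after scaling lay outside the counting interval of 6.96 to 9.81 but within the widened one. The sign was opposite for 1 value (FCGR2B between the lines in DMSO, -0.11 from the first libraries alone against 0.13). A pseudocount of 1 RPKM, which exceeds the level of many members, gave 2 members below 0.5 of DMSO in SU-DHL-5 and 2 in Toledo, with medians of -0.96 and -0.71. Requiring a mean of 1 RPKM kept 3 members in SU-DHL-5 and 4 in Toledo, of which 2 and 3 were below 0.5 of DMSO, and gave a median of -2.12 in Toledo; fewer genes were counted by construction. With no minimum of reads the median in SU-DHL-5 was -1.01 over 10 members. The other alternatives (a pseudocount of 0.01, scaling by the median ratio, either library alone, summed transcripts, FCGR2B left out) gave 3 or 4 of the members below 0.5 of DMSO in SU-DHL-5 and 5 or 6 in Toledo. Scaling moved log2 ratios by at most 0.055. Depth limits FCRL4 in both lines, FCRL1, FCRL2, FCER2 and FCMR in SU-DHL-5, and FCRL3 in Toledo.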
